A study of Mus musculus with 14 samples.

Results

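The 12411 genes described here are those with at least 10 counts in at least 2 of the 4 libraries that the labels give as MACF1 knockdown at day 0 and day 5, out of 24346 genes in the deposited table. They were followed from day 0 to day 5 in MC3T3-E1 cells, a mouse osteoblast line, whose polyadenylated RNA was sequenced. The series holds 14 libraries: control (NC) and MACF1 knockdown (sh) cells at days 0, 3 and 5, with 2 libraries in each group, and at day 10, with 1 library in each. All groups are the same line, and no other allele or agent is named; what day 0 counts from, the construct behind "sh" and "NC", the medium, and whether the cells are a clone or a pool are details not given in the sources used here.

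MACF1 is a spectraplakin, a very large protein that ties the actin and microtubule networks together. MC3T3-E1 cells are a common culture model of bone formation: RUNX2 and then SP7 (osterix) switch on genes for a matrix rich in type I collagen, alkaline phosphatase and bone sialoprotein help that matrix to mineralise, and osteocyte genes such as Dmp1 come late. Wnt, BMP, FGF and parathyroid hormone signalling all act on these cells, and the cholesterol pathway supplies their membranes.

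The 4 libraries held 18089569 and 13846849 counts at day 0 and 23301514 and 14499406 at day 5, and replicate 1 was the deeper in both groups. Of the counts, 3.46% and 3.78% at day 0 and 4.67% and 5.00% at day 5 came from mitochondrial genes. Replicate 2 of day 5 stood apart through Yam1, which held 2.34% of its counts at 22984 CPM (counts scaled to a common library total, with library sizes adjusted for composition) against 4309 CPM in replicate 1. Among the control libraries, replicate 2 of day 3 stood apart, with 19.3% of its counts in ribosomal protein genes, and it was not in the fit behind the results below. Osteoblast markers summed to 12004 and 12107 CPM at day 0 and 17053 and 17741 CPM at day 5, with 10 of 10 passing the filter. Osteocyte markers summed to 258 and 268 CPM at day 0 and 203 and 182 CPM at day 5, with Sost, Fgf23 and Mepe below the filter. Chondrocyte markers summed to 342 and 317 CPM at day 0 and 264 and 245 CPM at day 5. Nearly all of it came from Sox9 and Col2a1, and the fall lay in Sox9. Sox9 had 3476 and 2261 counts at day 0 and 2400 and 975 at day 5. Col2a1 had 2843 and 2260 counts at day 0 and 3798 and 2629 at day 5. Col10a1 also passed the filter, with no counts at day 0 and 19 and 11 at day 5. Acan, Col9a1 and Matn1 had at most 2 counts in any of the 4 libraries. Adipocyte markers summed to at most 5.27 CPM and macrophage and osteoclast markers to at most 1.15 CPM in these 4 libraries, with 1 of 7 and 0 of 7 passing. Myogenic markers summed to 5.31 and 4.13 CPM at day 0 and 10.1 and 7.93 CPM at day 5, nearly all from Des. Myod1, Myf5 and Actc1 had no row under those symbols in the deposited counts. Endothelial markers summed to at most 0.980 CPM. Whether the mitochondrial share, Yam1 or the marker sums that moved play a part in the results was not tested.

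The targeted gene, Macf1 (ENSMUSG00000028649.15, chr4:123349633-123684360, minus strand), did not separate the labels. In the libraries so labelled it measured 157 and 164 CPM at day 0 and 171 and 183 CPM at day 5, and control libraries had 158 and 164 CPM at day 0 and 179 and 207 CPM at day 5. In both conditions the later libraries lay above those of day 0, and at each day the conditions overlapped. Its change from day 0 to day 5 in the libraries labelled knockdown was 0.14 on the log2 scale (SE 0.10, adjusted p = 0.38). Adjusted p here and below comes from the quasi-likelihood F test of edgeR, adjusted after Benjamini and Hochberg over the 12411 genes. Because Macf1 RNA did not separate the labels, the libraries are called "labelled knockdown" throughout. Its paralogue Dst, the other spectraplakin, measured 233 and 267 CPM at day 0 and 198 and 262 CPM at day 5, a log2 change of -0.12 (SE 0.14, adjusted p = 0.61) that turned positive without replicate 1 of day 5.

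From day 0 to day 5, 1047 genes rose and 923 fell at an adjusted p under 0.05, which is 15.9% of the genes tested (8.44% higher and 7.44% lower). At unadjusted p under 0.05 there were 3751. The largest changes were rises: 324 genes rose and 148 fell by at least 2-fold (2.61% and 1.19% of the genes tested), 122 rose and 19 fell by at least 4-fold, and 53 rose and 1 fell by at least 8-fold. The median log2 change was 0.71 among the genes that rose and -0.58 among those that fell, against 0.0015 over all genes tested. In all 1970 called genes the day 0 and day 5 libraries did not overlap, as in 56.6% of all genes tested. Each group has 2 libraries, so the count depends on each. Left out in turn, day 0 replicate 1 gave 1061 calls, day 0 replicate 2 gave 987, day 5 replicate 1 gave 981 and day 5 replicate 2 gave 1266. With all 14 libraries in 1 fit, the aberrant control library of day 3 included, 197 genes rose and 77 fell, and without that library the same fit gave 1062 and 982.

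**Figure D1:**
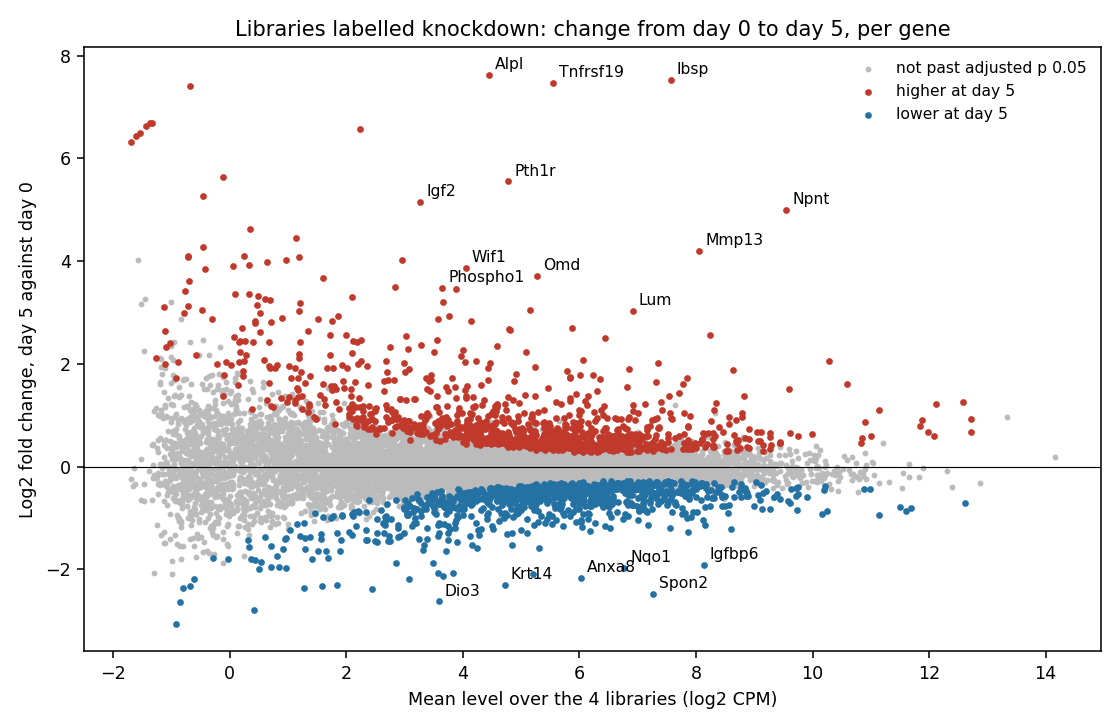
Each point is 1 of the 12411 genes, with its mean level over the 4 libraries labelled knockdown on the x axis (log2 CPM) and its log2 fold change from day 0 to day 5 on the y axis. Red points rose (1047) and blue points fell (923) at an adjusted p under 0.05; Alpl, Ibsp and Tnfrsf19 stand highest among the named genes and the falls reach less far than the rises.

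Bone mineralisation genes were among the largest rises. Of 28 osteoblast markers tested, 19 rose, 3 fell and 6 did not pass, with a median log2 change of 1.21. Alpl, the tissue-nonspecific alkaline phosphatase that frees phosphate for mineral (ENSMUSG00000028766.8, chr4:137741733-137796384, minus strand), went from 4 and 3 counts at day 0 to 1078 and 613 at day 5, or from 0.217 and 0.210 to 45.8 and 41.5 CPM. Scaled for depth, its day 5 level was 207 times that of day 0 (95% interval 100.02 to 514, counting error only; adjusted p = 1.09e-08). Ibsp, the gene of bone sialoprotein, an acidic matrix protein that binds mineral (ENSMUSG00000029306.8, chr5:104299171-104311469, plus strand), measured 1.46 and 2.73 CPM at day 0 and 401 and 353 CPM at day 5. Both day 5 libraries lay far above both day 0 libraries, a 184-fold rise (log2 7.53, SE 0.27, adjusted p = 1.53e-07). Phospho1, a phosphatase that acts inside matrix vesicles, measured 1.90 and 2.24 CPM at day 0 and 21.8 and 24.2 CPM at day 5, an 11.2-fold rise (adjusted p = 7.69e-07). Pth1r, the receptor for parathyroid hormone (ENSMUSG00000032492.12, chr9:110722085-110747145, minus strand), measured 0.866 and 1.47 CPM at day 0 and 50.4 and 57.0 CPM at day 5, a 46.9-fold rise (adjusted p = 1.46e-07). Omd, osteomodulin, a small proteoglycan of bone, measured 6.28 and 4.62 CPM at day 0 and 85.4 and 59.0 CPM at day 5, and although its day 5 libraries differed more than those of the others, both were above day 0 (log2 3.71, SE 0.26). Bglap, osteocalcin, went from 3 and 0 counts to 216 and 140. Its reads may be shared with near-identical copies, so this value is uncertain. In bulk RNA, more cells expressing a gene and more RNA per cell cannot be told apart, here and below. Under a stricter filter, at least 10 counts in all 4 libraries, 13 osteoblast markers were higher and 3 lower. Alpl and Bglap were then no longer tested. Leaving out any 1 of the 8 libraries of the fit gave 18 or 19 of these markers higher and 3 lower, and the fit of all 14 libraries gave 16 higher and none lower.

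**Figure D2:**
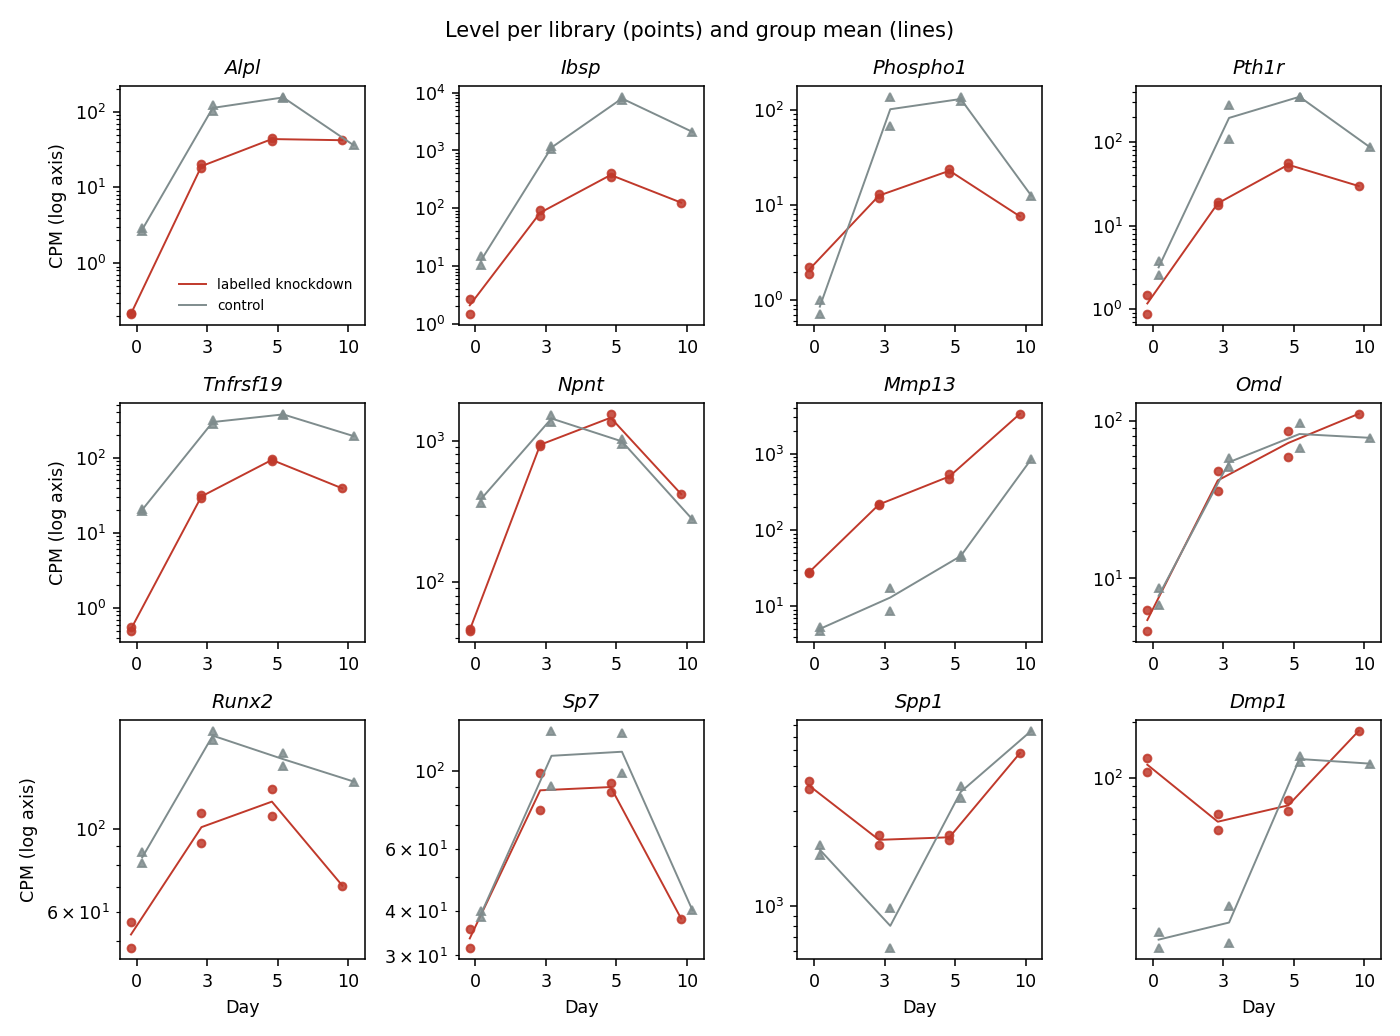
CPM per library (log axis) at days 0, 3, 5 and 10 for 12 bone genes; red circles are libraries labelled knockdown, grey triangles control, and lines join group means (1 library at day 10). Alpl, Ibsp, Phospho1, Pth1r, Tnfrsf19, Npnt, Mmp13, Omd, Runx2 and Sp7 stood higher at day 5 than at day 0 in both conditions, whereas Spp1 and Dmp1 stood lower at day 5 than at day 0 only in the libraries labelled knockdown.

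Runx2 and Sp7, regulators of this programme, moved less. Runx2, the transcription factor that starts osteoblast commitment, measured 56.4 and 47.8 CPM at day 0 and 128 and 109 CPM at day 5, a 2.27-fold rise (log2 1.19, SE 0.12, adjusted p = 0.000133). Sp7, which acts downstream of Runx2, measured 31.4 and 35.6 CPM at day 0 and 87.2 and 92.5 CPM at day 5, a 2.68-fold rise (adjusted p = 7.9e-05). Both genes had reached most of that level by day 3, at means of 101.2 and 88.0 CPM. Of 26 osteoblast transcription factors, 6 rose and 6 fell, with a median log2 change of -0.20. Twist1 (log2 0.74), Snai2 (0.62) and Dlx3 (3.13) were among those that rose. Dlx3 passed the filter on its day 5 counts alone, 31 and 13, against 3 and 1 at day 0. Those that fell were Dlx5 (-0.54), Snai1 (-0.55), Cebpd (-0.83), Sox11 (-0.85), Cebpb (-0.93) and Twist2 (-0.96). Cebpb, a C/EBP factor used in osteoblasts and adipocytes, measured 157 and 131 CPM at day 0 and 76.1 and 74.9 CPM at day 5. With 1 of the 4 libraries labelled knockdown left out, 4 to 6 of these factors were called higher and 3 or 4 lower, and the calls of Cebpd and Sox11 were each lost in 2 of the 8 fits that leave out 1 library.

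A pair of acidic phosphoproteins of mineralised matrix went the other way. Spp1, osteopontin, measured 4197 and 3842 CPM at day 0 and 2274 and 2147 CPM at day 5, and all day 5 libraries were below all day 0 libraries (log2 -0.86, SE 0.12, adjusted p = 0.000966). Dmp1, a marker of maturing osteocytes, measured 128 and 107 CPM at day 0 and 76.1 and 65.9 CPM at day 5 (log2 -0.73, SE 0.12, adjusted p = 0.00339). In the single library of day 10 they stood at 5809 and 179 CPM, above every earlier library. Of 15 osteocyte genes tested, 3 rose and 4 fell, with 2 to 4 lower when 1 library was left out. Phex, a membrane peptidase-like protein that limits FGF23 and mineral inhibitors, rose 7.68-fold, from 2.87 and 3.43 to 25.3 and 22.9 CPM (adjusted p = 2.65e-05). Besides Dmp1, the genes that fell were Pdpn (log2 -0.55), Kitl (-0.70) and Ackr3 (-0.96), and the call of Ackr3 was lost in 1 and that of Kitl in 3 of the 8 fits that leave out 1 library. Of 18 genes of phosphate and mineral handling, 3 rose (Alpl, Phospho1 and Phex) and 5 fell, and with any 1 of the 4 libraries labelled knockdown left out 2 or 3 were called lower. Anxa2 and Anxa5, calcium-dependent membrane binders found in matrix vesicles, fell from 1472 and 1532 to 785 and 799.8 CPM and from 1513 and 1625 to 809.6 and 917 CPM. Ank (log2 -0.34), which moves the mineral inhibitor pyrophosphate out of cells, and Slc20a1 (-0.41), a phosphate importer, fell less.

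Extracellular matrix genes leaned upward. Of 29 collagen chains, 14 rose and none fell (median log2 change 0.47). Col1a1, a chain of the type I collagen that makes up most of bone matrix, measured 2554 and 2746 CPM at day 0 and 6106 and 6320.1 CPM at day 5, a 2.34-fold rise (adjusted p = 0.000142). Col3a1, the fibrillar chain of soft connective tissue, rose 3.04-fold, from 780.2 and 737 to 2286 and 2332 CPM. On the RPKM scale, which divides by transcript length, Col1a1 went from a mean of 428 to 973 and Col3a1 from 131 to 385, so Col1a1 stayed the higher. Other chains that rose included Col24a1 (5.85-fold), Col8a1 (3.32-fold), Col11a1 (2.69-fold) and Col5a2 (1.57-fold). The basement membrane chains Col4a1 (log2 -0.055), Col4a2 (0.17) and Col18a1 (-0.10) did not pass. Leaving out 1 library gave 9 to 14 chains called higher, and the fit of all 14 libraries gave 5.

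Of 41 proteoglycans and matrix glycoproteins, 16 rose and 6 fell (median 0.14), with 15 or 16 higher and 3 to 6 lower when 1 library was left out. Npnt, nephronectin, an integrin ligand of osteoblast matrix (ENSMUSG00000040998.16, chr3:132881745-132950291, minus strand), measured 44.6 and 46.6 CPM at day 0 and 1359 and 1549.8 CPM at day 5, a 31.9-fold rise (log2 4.99, SE 0.13, adjusted p = 1.11e-08). It was among the largest rises at high level. Lum, lumican, which spaces collagen fibrils, measured 25.0 and 27.6 CPM at day 0 and 219 and 209.8 CPM at day 5, an 8.17-fold rise, and its relatives Omd (13.1-fold), Aspn (3.71-fold), Fmod (2.92-fold), Ogn (2.36-fold) and Dcn (1.96-fold) rose too. Bgn, biglycan, of the same family, did not pass (log2 -0.076). Tnc, tenascin C, a glycoprotein of growing and healing tissue, measured 82.6 and 93.7 CPM at day 0 and 505 and 529 CPM at day 5 (5.87-fold higher). Tgfbi (log2 -1.20), Vcan (-0.83), Fbln2 (-0.80) and Ecm1 (-0.75) were among those that fell.

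Matrix proteases and their inhibitors gave 10 rises and 1 fall among 24. Mmp13, collagenase 3, the main collagenase of rodent bone (ENSMUSG00000050578.9, chr9:7272514-7283331, plus strand), measured 28.1 and 27.2 CPM at day 0 and 544 and 467 CPM at day 5, an 18.3-fold rise (log2 4.19, SE 0.11, adjusted p = 1.11e-08), and stood at 3340.4 CPM in the day 10 library. Adamts1 rose 3.75-fold, Adamts4 1.93-fold and Ctsk, the cathepsin best known from osteoclasts, 2.13-fold. The inhibitors Timp1 (log2 -0.0014), Timp2 (-0.25) and Timp3 (-0.059) did not pass. Of 32 collagen modifying genes, 9 rose and 3 fell. Leaving out 1 library gave 3 to 8 of them called higher and 1 to 3 lower, and 7 to 10 of the proteases higher.

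The promoter of Mmp13 is shown because RUNX2, whose own gene rose, is a known activator of this gene in mouse bone. The 300 bases run from 250 before to 50 after the RefSeq start in GRCm38.p6, at chr9:7272264-7272563 on the plus strand, and capitals mark the reverse complement of TGTGGT, the core of the Runx motif, whose first base lies at position -118 with the start counted as 0.
Mmp13: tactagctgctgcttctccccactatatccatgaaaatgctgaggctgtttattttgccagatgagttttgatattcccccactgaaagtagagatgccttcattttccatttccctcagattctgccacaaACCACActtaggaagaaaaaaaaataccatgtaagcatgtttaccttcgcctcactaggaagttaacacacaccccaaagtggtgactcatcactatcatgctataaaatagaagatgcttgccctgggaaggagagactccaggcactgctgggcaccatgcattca
TGTGGT was found on either strand in 14.6% of the 9090 tested genes with a promoter in the RefSeq table. Of the 28 osteoblast markers only 15 had one, so their share cannot be read against this. The promoters of Ibsp, Alpl, Phospho1, Pth1r and Tnfrsf19, which also rose, were searched for the same letters and held no match. A match describes letters and not a bound site, and whether RUNX2 acts on Mmp13 here was not tested.

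Growth factor and hormone genes showed several large single changes. Of 23 Wnt target genes tested, 11 rose and 3 fell (median log2 change 0.73). Tnfrsf19 (TROY), a TNF receptor relative whose gene is a target of β-catenin (ENSMUSG00000060548.10, chr14:60963875-61046490, minus strand), went from 9 and 8 counts at day 0 to 97.3 and 89.4 CPM at day 5, from 0.487 and 0.560 CPM (log2 7.47, SE 0.15, adjusted p = 2.82e-09). Axin2, the feedback inhibitor most often used as a Wnt readout, measured 2.92 and 3.36 CPM at day 0 and 12.4 and 12.9 CPM at day 5, a 4.04-fold rise (adjusted p = 0.000101). Lef1, a transcription factor of the same pathway, measured 1.57 and 2.17 CPM at day 0 and 2.97 and 3.18 CPM at day 5, and this did not pass (log2 0.73, adjusted p = 0.1). Wisp1 (2.54-fold) and Myc (2.14-fold) also rose, and Sox9 fell (log2 -1.04). The low genes Rnf43 and Nkd2, picked out after their values were seen, are both membrane-level Wnt inhibitors. Both passed the filter on their day 5 counts alone. With at least 10 counts required in all 4 libraries, 8 Wnt targets were called higher and 3 lower. Rnf43 had 3 and 0 counts at day 0 and 55 and 38 at day 5, 26.5 times higher for depth (95% interval 8.79 to 131, counting error only), and Nkd2 had none at day 0 and 19 and 10 at day 5. With 1 library left out, 10 or 11 targets were called higher and 2 to 4 lower, and the fit of all 14 gave 6 higher.

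Of 35 Wnt ligands, receptors and other pathway components, 3 rose and 7 fell. With any 1 of the 4 libraries labelled knockdown left out, 1 to 4 were called higher and 3 lower. Ctnnb1, β-catenin, measured 451 and 458 CPM at day 0 and 682 and 604 CPM at day 5, a log2 rise of 0.50 (SE 0.10, adjusted p = 0.00662), and that call was lost without replicate 1 of day 0 or of day 5. Lrp4, a co-receptor that binds sclerostin, rose 2.29-fold, while Rspo2, a secreted Wnt booster, fell from 25.6 and 24.4 to 9.30 and 10.4 CPM (log2 -1.35). Of 7 secreted antagonists tested, 4 rose and 1 fell, and 2 or 3 were called higher without 1 of those 4 libraries. Wif1, which binds Wnt proteins directly, measured 1.62 and 2.73 CPM at day 0 and 28.5 and 33.7 CPM at day 5, a 14.5-fold rise (adjusted p = 3.8e-06), and Dkk3 fell (log2 -0.56).

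Of 18 genes of FGF signalling, 7 rose and 1 fell (median log2 change 0.73). The 1 fall rests on each of the 4 libraries labelled knockdown, and the fit of all 14 libraries gave 4 higher and none lower. Fgfr3 rose 6.32-fold, Fgfr2 3.04-fold and Fgfr1 1.58-fold. Fgfr3 measured 7.42 and 7.91 CPM at day 0 and 46.1 and 50.9 CPM at day 5. Spry1, a feedback inhibitor, rose 5.03-fold, whereas Spry2 (log2 0.063) and Dusp6 (0.16), feedback genes of the same pathway, did not pass. Of 32 genes of BMP and TGF-β signalling, 6 rose and 4 fell, with 4 to 7 higher and 2 to 4 lower when 1 library was left out. Bmp4 measured 12.9 and 13.0 CPM at day 0 and 21.02 and 23.04 CPM at day 5 (1.70-fold higher), while Id1 (log2 -1.09) and Id4 (-0.74), which encode inhibitors of helix-loop-helix factors and are induced by BMP in many cells, fell. Among 14 IGF genes, 5 rose and 4 fell, and 2 to 4 were called lower when 1 library was left out. Igf2, the fetal growth factor, went from 9 and 8 counts at day 0 to 18.9 and 18.6 CPM (35.7-fold), Igfbp5 rose 3.19-fold, and Igfbp6, a binding protein that prefers IGF2, fell from 448 and 440.4 to 122 and 116 CPM (log2 -1.90, adjusted p = 9.19e-07). Tnfrsf11b, osteoprotegerin, the decoy for the osteoclast factor RANKL, measured 40.1 and 39.0 CPM at day 0 and 100.4 and 105 CPM at day 5 (2.59-fold higher).

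Of the 41 lists, cholesterol and fatty acid synthesis held the largest share of genes that fell: of 31 tested, 26 fell and none rose, with a median log2 change of -0.77. These genes are switched on together by the factors SREBP1 and SREBP2 when sterol is scarce. Srebf2, which encodes SREBP2, measured 170.3 and 199 CPM at day 0 and 93.0 and 107 CPM at day 5 (log2 -0.89, adjusted p = 0.000662). Genes of the mevalonate steps fell: Mvk measured 85.5 and 81.8 CPM at day 0 and 41.9 and 37.3 CPM at day 5 (log2 -1.08, adjusted p = 0.00014), Mvd -1.28 and Idi1 -1.14 on the log2 scale. Further along, Lss (log2 -1.17), Tm7sf2 (-1.52), Msmo1 (-0.98) and Hsd17b7 (-1.04) fell, as did the fatty acid desaturase Scd1 (-0.92). Among the 5 that did not pass were Ebp (log2 0.32), Srebf1 (-0.27), Acaca (-0.38) and Fasn (-0.59). With 1 library left out, 23 to 26 were called lower, and the fit of all 14 libraries gave 4.

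**Figure D3:**
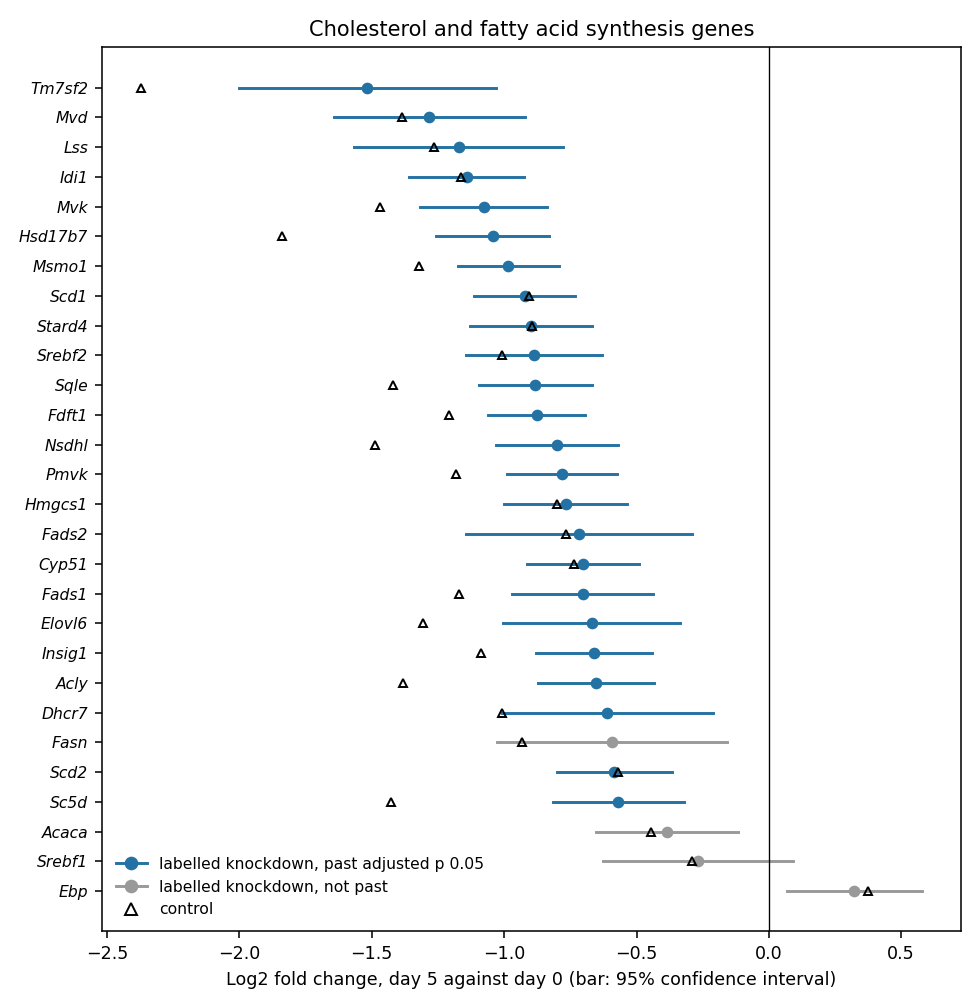
Log2 fold change from day 0 to day 5 for 28 of the 31 tested genes of cholesterol and fatty acid synthesis: circles are the libraries labelled knockdown with 95% confidence intervals from the fit (2 libraries a day), open triangles the control. Of the circles, 24 are blue (adjusted p under 0.05) and lie below 0; Ebp alone lies above 0 and did not pass.

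Promoters of this set are shown because its members moved together. Each is 300 bases in GRCm38.p6 from RefSeq, 250 before to 50 after the start, read on the gene's strand. Capitals mark CCAAT or its reverse complement ATTGG, the box bound by NF-Y, which is known to work with SREBP, and TCACNCCAC, a sterol response core that was added after the values were seen. Tm7sf2 lies at chr19:6067801-6068100 on the minus strand, Mvd at chr8:122443373-122443672 on the minus strand, Mvk at chr5:114444019-114444318 on the plus strand and Hmgcs1 at chr13:119690101-119690400 on the plus strand.
Tm7sf2: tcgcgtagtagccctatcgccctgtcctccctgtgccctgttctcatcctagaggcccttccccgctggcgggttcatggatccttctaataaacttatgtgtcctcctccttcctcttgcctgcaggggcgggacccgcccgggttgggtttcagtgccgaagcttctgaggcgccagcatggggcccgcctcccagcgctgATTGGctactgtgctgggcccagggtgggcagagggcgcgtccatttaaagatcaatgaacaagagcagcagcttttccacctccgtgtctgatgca
Mvd: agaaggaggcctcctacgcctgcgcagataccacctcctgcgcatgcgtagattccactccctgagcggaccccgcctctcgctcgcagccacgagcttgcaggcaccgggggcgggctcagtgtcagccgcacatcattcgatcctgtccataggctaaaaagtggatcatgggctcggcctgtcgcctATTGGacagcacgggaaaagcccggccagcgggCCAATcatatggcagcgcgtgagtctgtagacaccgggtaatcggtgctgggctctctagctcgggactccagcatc
Mvk: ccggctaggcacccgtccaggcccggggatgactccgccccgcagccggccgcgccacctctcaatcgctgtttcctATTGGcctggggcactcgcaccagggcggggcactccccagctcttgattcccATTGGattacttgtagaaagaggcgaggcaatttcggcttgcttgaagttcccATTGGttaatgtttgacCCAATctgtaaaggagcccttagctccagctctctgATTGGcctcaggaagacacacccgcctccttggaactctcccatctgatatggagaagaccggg
Hmgcs1: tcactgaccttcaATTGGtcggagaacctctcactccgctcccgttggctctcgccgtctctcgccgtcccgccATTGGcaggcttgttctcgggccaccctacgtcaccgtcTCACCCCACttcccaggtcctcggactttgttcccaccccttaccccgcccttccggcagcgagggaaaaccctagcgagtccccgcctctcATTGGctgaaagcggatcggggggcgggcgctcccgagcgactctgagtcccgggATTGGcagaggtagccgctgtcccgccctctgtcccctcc
Of the 31 genes, 22 had a promoter in the table, under 80% of them, which is too few to read the shares as those of the set. CCAAT was found in 19 of the 22 (86.4%) and in 43.4% of the 9090 tested genes with a promoter, counting a gene once whatever its number of starts or matches and searching both strands. The sterol response core was found in Hmgcs1 alone (4.55% of the 22), against 1.35% of the tested genes. No match says only that these letters are not in this window.

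Of 24 NRF2, glutathione and antioxidant genes, 10 fell and 1 rose (median -0.26). Nqo1, a quinone reductase and a standard NRF2 target, measured 170.1 and 179 CPM at day 0 and 42.0 and 46.8 CPM at day 5 (log2 -1.98, SE 0.095, adjusted p = 8.44e-07). Hmox1, heme oxygenase 1, measured 43.0 and 42.2 CPM at day 0 and 13.4 and 16.4 CPM at day 5 (log2 -1.52, adjusted p = 6e-05), and was back at 48.7 CPM in the day 10 library. The glutathione transferases Gsta4 (log2 -1.01) and Gstm1 (-0.87) fell, whereas Txnrd1 (0.15) and Prdx1 (0.13) did not pass. With 1 library left out, 7 to 10 were called lower, and the fit of all 14 gave 2. None of 12 glucocorticoid-responsive genes rose and 5 fell, among them Sgk1 (log2 -0.74) and Mt2 (-1.21). The median log2 change of the 12 was only -0.016, and in the fit of all 14 libraries none was called. Of 27 lysosome and autophagy genes, 6 fell and 1 rose, but without 1 of the 4 libraries labelled knockdown 1 to 3 were called lower and none higher, the 1 being without replicate 1 of day 5. Of 52 nuclear subunits of oxidative phosphorylation 2 fell and none rose, a share of 3.85% called, below the 15.9% of all genes tested. Those 2 calls depend on single libraries labelled knockdown.

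The largest single falls were in genes of varied roles. Spon2, spondin 2, a secreted matrix protein (ENSMUSG00000037379.5, chr5:33198184-33218455, minus strand), measured 256 and 264 CPM at day 0 and 42.4 and 51.2 CPM at day 5, and the day 5 libraries were about equal (log2 -2.48, SE 0.11, adjusted p = 5.97e-07). Dio3, the deiodinase that inactivates thyroid hormone, measured 24.2 and 17.2 CPM at day 0 and 3.57 and 3.12 CPM at day 5 (log2 -2.62, adjusted p = 0.000172). Krt14, a keratin of basal epithelium, measured 46.0 and 42.1 CPM at day 0 and 10.7 and 6.78 CPM at day 5 (log2 -2.31). Anxa8 measured 99.8 and 113 CPM at day 0 and 22.2 and 25.5 CPM at day 5 (log2 -2.16), and Itgb7, an integrin chain best known from lymphocytes, fell by 2.07 on the log2 scale. Ly6a, the stem cell antigen Sca-1, measured 22.96 and 22.97 CPM at day 0 and 6.07 and 4.74 CPM at day 5 (log2 -2.07, adjusted p = 8.35e-05). Tinagl1, Fam19a5, Dact2, Ropn1l, Npr3 and Calml4 were also among the 15 largest falls by the naming rule, between 1.61 and 2.39 on the log2 scale.

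Of 46 genes of G2 and mitosis, which carry out cell division, 15 rose, none fell and 31 did not pass (median log2 change 0.22). Cenpe, the kinetochore motor, measured 228 and 201 CPM at day 0 and 414 and 379.6 CPM at day 5, a 1.85-fold rise (SE 0.10 on the log2 scale, adjusted p = 0.000352). Cenpf, a kinetochore protein, measured 177 and 168 CPM at day 0 and 301 and 286 CPM at day 5, a 1.70-fold rise. Mki67, the proliferation antigen, rose 1.35-fold and Top2a 1.29-fold, whereas Ccnb1 (log2 0.22), Cdc20 (0.028) and Aurkb (0.045) did not pass. Both kinetochore genes were at least as high at day 3, at means of 439 and 319 CPM, and stood at 85.5 and 59.9 CPM in the day 10 library. Of 40 DNA replication genes, 1 rose and none fell (median 0.19), a share of 2.5% called, below the 15.9% of all genes tested. Of 21 G1 cyclins, CDK inhibitors and Myc genes 6 rose and none fell, among them Ccnd2 (2.06-fold) and Ccnd1 (1.51-fold). The mitotic count rests on each library: with any 1 of the 4 libraries labelled knockdown left out it was between 3 and 8, and in the fit of all 14 libraries it was 1.

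The promoters of Cenpf and Ttk, a spindle checkpoint kinase that rose 1.46-fold (a call lost without either library of day 0 or without replicate 1 of day 5), are shown because CCAAT and TTTGAA are motifs known from mitotic genes. Capitals mark CCAAT and TTTGAA, or their reverse complements, the latter being letters of the cell cycle homology region. Cenpf lies at chr1:189688037-189688336 on the minus strand and Ttk at chr9:83834439-83834738 on the plus strand.
Cenpf: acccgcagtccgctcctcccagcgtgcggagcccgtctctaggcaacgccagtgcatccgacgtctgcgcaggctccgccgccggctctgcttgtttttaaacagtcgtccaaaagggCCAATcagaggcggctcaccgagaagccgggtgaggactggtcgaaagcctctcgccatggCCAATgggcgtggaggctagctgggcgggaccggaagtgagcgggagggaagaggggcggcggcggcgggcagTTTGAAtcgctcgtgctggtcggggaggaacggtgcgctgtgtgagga
Ttk: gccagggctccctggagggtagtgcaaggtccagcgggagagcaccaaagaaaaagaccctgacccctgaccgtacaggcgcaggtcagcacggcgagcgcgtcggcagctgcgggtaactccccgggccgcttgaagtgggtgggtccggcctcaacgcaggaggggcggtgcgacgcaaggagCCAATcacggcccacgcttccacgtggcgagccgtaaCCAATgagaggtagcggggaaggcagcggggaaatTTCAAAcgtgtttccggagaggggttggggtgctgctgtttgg
Of the 46 genes, 38 had a promoter in the table. TTTGAA was found in 28 of them (73.7%) and in 13.9% of the tested genes with a promoter, and CCAAT in 30 (78.9%). The promoter of Cenpe, not shown, held CCAAT and no TTTGAA, and that of Smc2, not shown, held both. In DNA replication genes, 32 of 40 had a promoter, and TTCCCGC, an E2F site, was found in 14 of them (43.8%) against 10.1%.

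Stress and signalling groups were called in different shares, beside 15.9% of all genes tested. In either direction, 28.1% of glycolysis and hypoxia, 25% of p53 target and 44% of immediate early genes were called. Interferon and antigen presentation genes, at 18.2%, and unfolded protein response genes, at 12.5%, lay near the share of all genes. Among 32 glycolytic and hypoxia response genes, 7 rose and 2 fell (median 0.18), with 4 to 7 called higher and 1 or 2 lower when 1 library was left out. Pgk1, a glycolytic enzyme, measured 228 and 224 CPM at day 0 and 320.1 and 333 CPM at day 5 (1.44-fold higher) and stood at 1326 CPM in the day 10 library. Of 20 p53 target genes, 3 rose and 2 fell; without replicate 2 of day 0 labelled knockdown none was called higher and 1 lower, and without replicate 1 of either day 1 was called in each direction. Of 33 genes of the interferon response and antigen presentation, 4 rose and 2 fell (median -0.10), with H2-K1, a class I histocompatibility chain, at 56.0 and 51.7 CPM at day 0 and 89.8 and 109.8 CPM at day 5 (1.85-fold higher). Leaving out 1 library gave 1 to 4 of them higher and at most 2 lower. Of 32 genes of the unfolded protein response and amino acid stress, 1 rose and 3 fell, with 1 to 4 called lower when 1 library was left out. Of 25 immediate early genes, 7 rose and 4 fell (4 to 8 higher and 2 to 4 lower with 1 library left out), with Nr4a1 2.93-fold and Egr1 2.24-fold higher and Jund (log2 -0.96) and Jun (-0.74) lower.

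Cytoskeleton and adhesion genes went both ways. Of 30 YAP, SRF and contractile genes, 9 rose and 3 fell (median -0.04), with 7 to 9 higher and 1 to 4 lower when 1 library was left out. Tpm1, a tropomyosin, measured 3772 and 3399 CPM at day 0 and 9244 and 8031 CPM at day 5, a 2.41-fold rise (adjusted p = 0.000125). Ctgf, a YAP target, rose 3.20-fold, Tagln, a smooth muscle actin binder, 2.91-fold, and Acta2, smooth muscle actin, 1.58-fold. Those that fell were Axl (log2 -0.43), Myh9 (-0.44) and Csrp1 (-0.57). Of 28 genes of spectraplakins and microtubules, 3 rose and 5 fell, with Tubb2a, a tubulin, at 98.2 and 105 CPM at day 0 and 42.1 and 43.6 CPM at day 5 (log2 -1.25, adjusted p = 3.8e-05). Leaving out 1 library gave at most 2 of these higher and 2 to 5 lower. Of 26 integrins, cadherins and junction genes, 7 rose and 8 fell, with 5 to 7 higher and 4 to 8 lower when 1 library was left out. Itga1 (3.58-fold) and Itga8 (3.30-fold), chains of collagen and nephronectin receptors, rose, and Itga6, a chain of laminin receptors, fell (log2 -1.10).

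Of 15 chemokines and cytokines, 4 rose and 1 fell, but with 1 library left out 2 to 5 were called higher and none lower. Of 8 complement and innate secreted genes, 4 rose and 1 fell. Of 23 hormone receptor and osteoclast coupling genes, 6 rose and 4 fell, with 5 or 6 higher and 1 to 3 lower when 1 library was left out. Of 10 Notch genes, 1 fell (10% called, against 15.9% of all genes tested). Of 5 replication-dependent histones, which polyadenylated RNA largely misses, none passed. Of 9 imprinted growth genes, 3 rose, namely Igf2, Mest (8.23-fold) and Plagl1 (6.52-fold), and 1 fell, Peg10 (log2 -0.61). Of the lists of other cell types, 3 of 9 chondrocyte, 2 of 3 myogenic, 2 of 3 macrophage and osteoclast and 1 of 5 adipocyte genes rose, and 1, 0, 1 and 1 fell. Without replicate 2 of day 0 or replicate 1 of day 5 labelled knockdown, 1 chondrocyte gene and no myogenic gene were called higher. The median log2 change of the 9 chondrocyte genes was 1.01. The single endothelial gene did not pass.

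**Figure D4:**
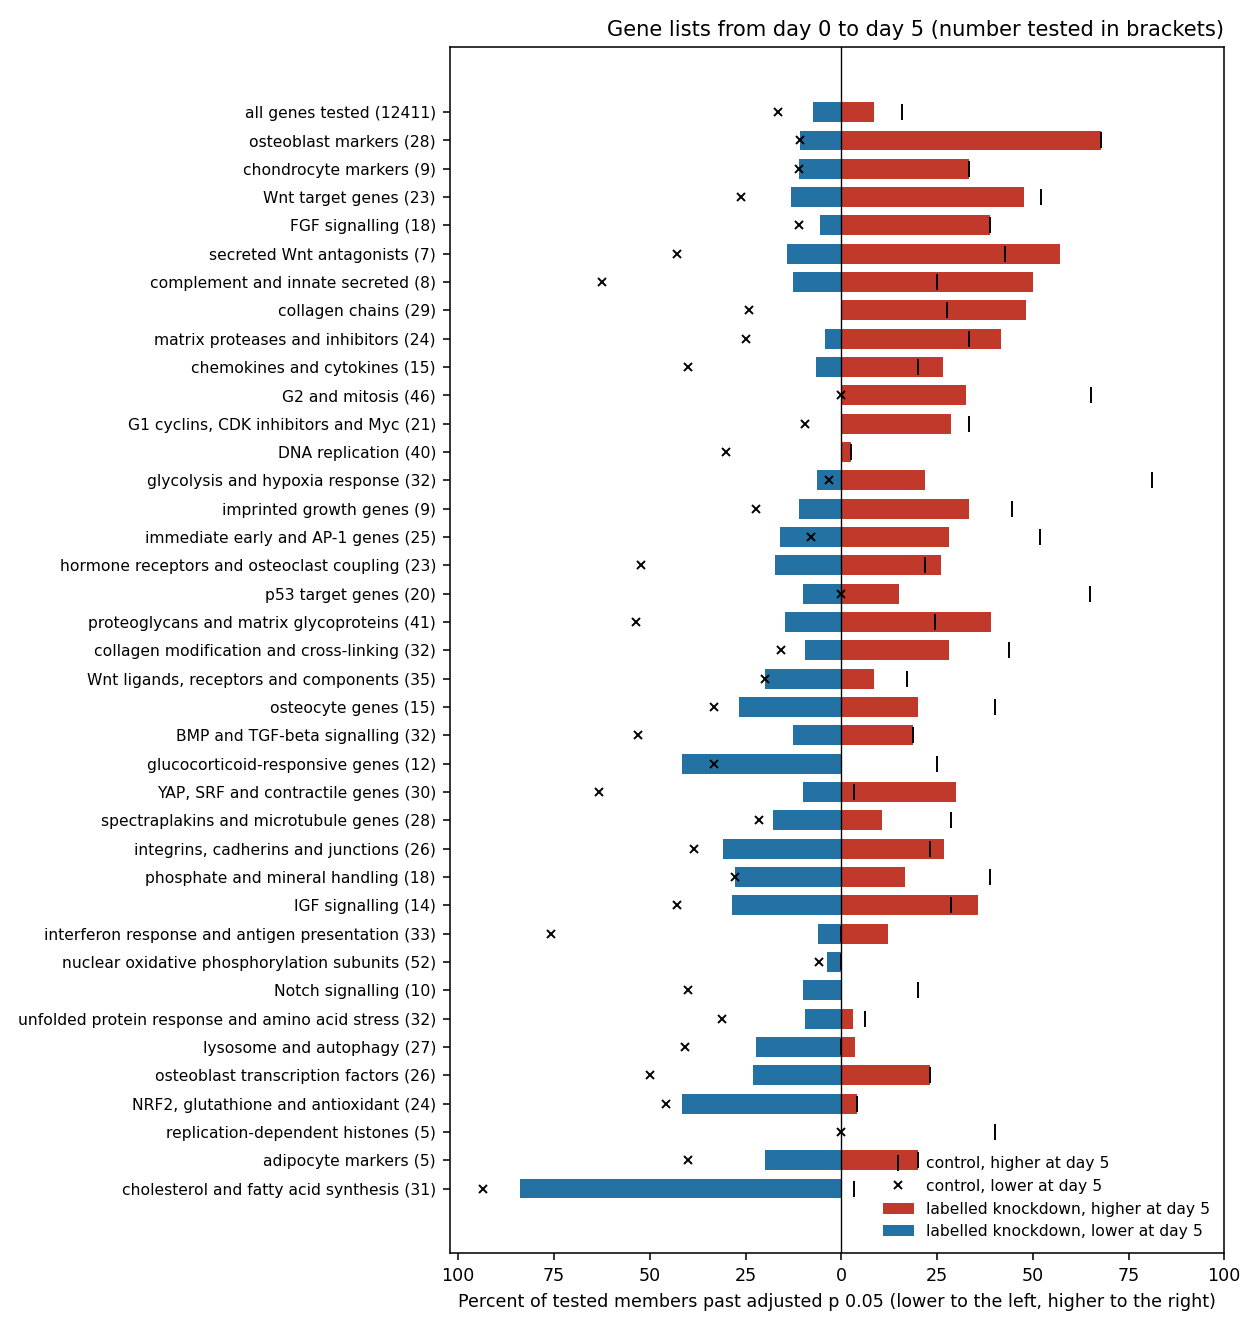
Percent of the tested members of each gene list past an adjusted p of 0.05 between day 0 and day 5. Only lists with at least 5 tested members are drawn, in order of their median log2 change. Red bars to the right are members that rose and blue bars to the left members that fell in the libraries labelled knockdown. Black ticks and crosses are the same for control. Osteoblast markers (19 of 28 higher) and cholesterol and fatty acid synthesis (26 of 31 lower) stand at the ends, and the top row gives all 12411 genes tested.

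The same genes were tested over the same days in control, which shares no library with the course above. There, 1978 rose and 2053 fell, 32.5% of the genes tested (15.9% higher and 16.5% lower). Of the 1047 genes that rose in the libraries labelled knockdown, 614 rose in control as well (58.6%, or 31.0% of those that rose in control), 95 fell and 338 did not pass. Of the 923 that fell, 553 fell in control (59.9%, or 26.9% of those that fell in control), 44 rose and 326 did not pass. Across genes, the changes had a Pearson correlation of 0.49 and a Spearman correlation of 0.49, a description over 12411 genes that are not independent. The difference between the changes was itself tested as an interaction, and it passed in 1201 genes (9.68%), more positive in the libraries labelled knockdown in 685 (5.52%) and more negative in 516 (4.16%). It passed in all 139 genes called in opposite directions. That follows largely from how those genes were picked, since both changes had already passed against the same estimate of the spread. The difference also passed in 159 of the 664 called in the libraries labelled knockdown and not in control. For the rest of those 664 no difference was shown.

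Within the bone programme the difference went both ways. Of the 28 osteoblast markers, the change was more positive in 5 and more negative in 8. Ibsp rose in both but less in the libraries labelled knockdown, since control went from 15.0 and 10.2 to 8514 and 7376 CPM (difference -1.77 on the log2 scale, SE 0.36, adjusted p = 0.0121). Phospho1 differed more, with control at 0.711 and 1.001 CPM at day 0 and 123 and 138 CPM at day 5 (difference -3.77, adjusted p = 2.69e-05). Dmp1 rose in control from 14.9 and 12.1 to 131 and 121 CPM while it fell in the libraries labelled knockdown (difference -3.95, SE 0.19, adjusted p = 1.42e-06), and Spp1 did likewise (difference -1.82, adjusted p = 9.44e-05). Npnt rose more in the libraries labelled knockdown than in control, which measured 359 and 413 CPM at day 0 and 944 and 1033 CPM at day 5 (difference 3.64, adjusted p = 1.41e-06). For Alpl the difference was 1.83 (adjusted p = 0.00783), but it turned to -0.86 with a pseudocount of 1 on the RPKM scale, and its day 0 level rests on 4 and 3 counts. Runx2 (difference 0.31, adjusted p = 0.308) and Sp7 (-0.10, adjusted p = 0.814) did not pass.

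The difference also passed in many members of other groups. Collagen chains were more positive in the libraries labelled knockdown in 14 of 29 and more negative in 2, and proteoglycans in 22 of 41 and 2. YAP, SRF and contractile genes, of which 19 fell in control, were more positive in 16 of 30 and more negative in none. Tpm1, for example, went in control from 5225 and 4751 to 2868 and 2613 CPM (difference 2.13, adjusted p = 4.25e-05). Interferon response genes, of which 25 of 33 fell in control, were more positive in 16. Glycolysis and hypoxia genes, of which 26 of 32 rose in control, were more negative in 21, and p53 targets, of which 13 of 20 rose in control, in 9. Genes of G2 and mitosis rose in 30 of 46 in control and were more negative in 6. Cholesterol and fatty acid synthesis genes fell in 29 of 31 in control (median -1.17), and 5 were more positive.

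The genes with the smallest p of the difference include several that moved far in control. In the libraries labelled knockdown H19, an imprinted noncoding RNA, measured 6.50 and 6.79 CPM at day 0 and 6.58 and 8.47 CPM at day 5, which did not pass (log2 0.16, adjusted p = 0.648), and 0.775 and 0.214 CPM at day 0 and 552 and 448 CPM at day 5 in control (difference -9.76, adjusted p = 3.29e-07). Tnfrsf11b rose in both, and far more in control, which went from 13.7 and 12.5 to 442 and 406 CPM. Nov, a matrix-associated signalling protein, and Sfrp2, a secreted Wnt antagonist, fell in control (log2 -3.24 and -2.62). In the libraries labelled knockdown Nov did not pass (0.23) and Sfrp2 rose (0.48), a call lost in 2 of the 8 fits that leave out 1 library. Akap12, a kinase scaffold, rose in the libraries labelled knockdown (log2 0.92) and fell in control (-2.80), and so did Matn4 (2.08 and -0.72), Cp (1.66 and -0.64), Megf6 (3.21 and -0.68) and Gdpd2 (1.34 and -2.39). Anxa8 (-2.16 and 1.23), Krt14 (-2.31 and 3.70) and Lrrc15 (-0.81 and 3.69) fell in the libraries labelled knockdown and rose in control. Several genes that differed began at different levels, among them Krt14, Lrrc15, H19 and, by the values given above, Dmp1, Npnt and Ibsp. At day 0 Krt14 measured 46.0 and 42.1 CPM in the libraries labelled knockdown and 0.581 and 0.572 CPM in control. What part the starting levels play in the differences was not tested.

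**Figure D5:**
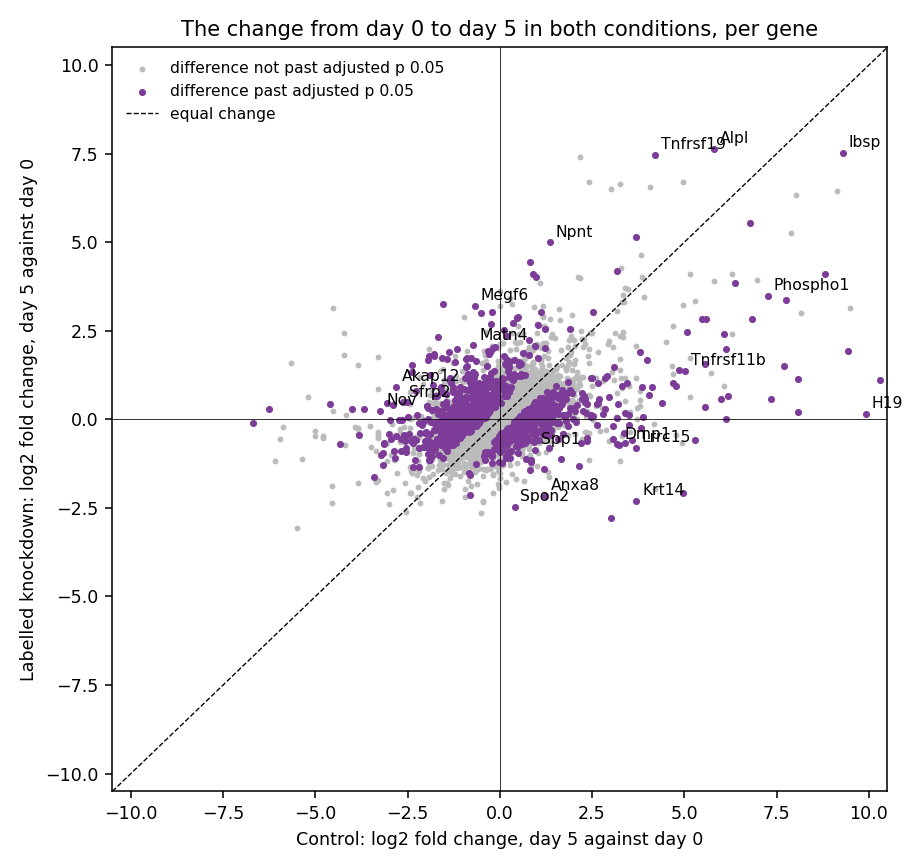
Log2 fold change from day 0 to day 5 per gene, in control on the x axis and in the libraries labelled knockdown on the y axis (12411 genes, 2 libraries a day and condition). Purple points are the 1201 genes whose difference passed an adjusted p of 0.05; H19 lies near 0 on the y axis and near 10 on the x axis, while Npnt and Megf6 lie above the dashed line of equal change and Krt14 far below it.

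Days 3 and 10 place these changes in time, as a description. On the log2 scale of CPM plus 0.5, the day 3 mean lay between day 0 and day 5 in 833 of the 1047 genes that rose, beyond day 5 in 195 and on the other side of day 0 in 19, and the median gene had made 75.9% of its change. Of the 923 that fell, 650 lay between, 271 beyond and 2 on the other side, with a median of 86.1%. In the single day 10 library, 342 of the genes that rose stood beyond their day 5 mean and 157 were back past day 0, and of those that fell 257 stood beyond and 158 were back past day 0. Mmp13, Igf2 and Omd stood highest at day 10, at 3340.4, 98.0 and 110.5 CPM, while Npnt (418 CPM), Ibsp (125 CPM) and Tnfrsf19 (39.0 CPM) stood below day 5. Day 10 has 1 library, so these have no replicate check.

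The called genes were mostly protein-coding (1005 of those that rose and 908 of those that fell). Of 11533 protein-coding genes tested 16.6% were called, against 7.27% of 220 long intergenic noncoding RNAs and 2.60% of 154 processed pseudogenes. The median exon length was 5394 bases among genes that rose, 4270 among genes that fell and 4383 over all genes tested, and the rank correlation of the log2 change with length was 0.091. With the day 0 level in RPKM it was -0.21. Both are descriptions across genes that are not independent. The most abundant genes at day 5 per length included mt-Co1, a mitochondrial respiratory subunit, at 16693 and 17524 CPM at day 0 and 18796 and 20115 CPM at day 5, which did not pass (log2 0.19), and mt-Nd1, which rose (log2 0.67, adjusted p = 0.00361). Yam1 and Gm23935 were highest, of all 14 libraries, in replicate 2 of day 5 labelled knockdown, and did not pass (log2 0.96 with SE 0.88, and 1.20 with SE 1.20).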

How the data were processed

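Polyadenylated RNA was made into directional libraries, per the labels' protocols. Raw counts of reads for each gene were deposited by the authors, as were RPKM values, with 1 column per library. Bcl2fastq, TopHat2, edgeR and GRCm38 are named in the submitters' processing notes; their versions, the counting tool, its strand setting and the annotation were not given in the sources used here. Reads of overlapping, antisense or near-identical genes may therefore be shared.

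Counts of the 8 libraries of days 0 and 5 were fitted here with the robust quasi-likelihood F test of edgeR 4.0.16 in R 4.3.3 (trimmed mean of M values, 4 groups, 4 residual degrees of freedom), so that control and knockdown labels share 1 estimate of the spread. The 12411 tested genes had 10 or more counts in 2 or more of the 4 libraries labelled knockdown. The Benjamini-Hochberg adjustment ran over all of them, with a threshold of 0.05. Intervals are at the 95% level, and depth limits those of low genes. Positions and exon lengths come from GENCODE M21. The series' design text calls the replicates biological; whether they were separate cultures is not stated, so a p measures only the spread between these libraries. Alternatives used DESeq2 1.42.0, limma 3.58.1 on log2 RPKM with a pseudocount, other filters and other sets of libraries.

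The genes, lists and tests were chosen with earlier results of these data known. Genes were named by a rule: 14 listed by name, the 15 that rose most and the 15 that fell most at a mean of at least 5 CPM, up to 5 called members of each list, the 10 smallest p of the difference, the 5 most abundant genes and 5 genes with opposite changes. Members of lists given beyond these were chosen after their values were seen. Some genes that the rule names are not reported here.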

Additional observations from a re-analysis of the deposited data

Results flagged for a closer look

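The change from day 0 to day 5 differed between the conditions, by the test of the interaction in edgeR, in 1201 genes: it was more positive in the libraries labelled knockdown in 685 and more negative in 516. Each difference below is the log2 change in the libraries labelled knockdown minus that in control, over 2 libraries per day and condition. Among bone genes it was 1.83 for Alpl, -1.77 for Ibsp, -1.82 for Spp1, -3.95 for Dmp1 and 0.65 for Col1a1, and for Lef1 it was -1.51. The sign for Alpl depends on the scale, as given below. The difference was positive for Akap12 (3.73), Nov (3.47), Npnt (3.64), Sfrp2 (3.10), Matn4 (2.80), Cp (2.30), Megf6 (3.90) and Gdpd2 (3.73). It was negative for H19 (-9.76), Tnfrsf11b (-3.64), Anxa8 (-3.40), Krt14 (-6.00) and Lrrc15 (-4.50). Groups of 1 or 2 libraries are too small to test single libraries as outliers.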

How the results depend on the processing

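Under DESeq2, DESeq2 size factors, a stricter filter, limma on RPKM, the 4 or 7 libraries labelled knockdown alone and the 13 libraries without replicate 2 of control day 3, every count of the 3 comparisons that could be computed stayed within 1.5 times the value given above. With all 14 libraries, 197 genes rose and 77 fell in the libraries labelled knockdown, 536 and 497 in control, and the difference passed in 110 and 71; the cause was not tested. With no filter, the difference was more negative in 816 genes. With the replicate number as a block the counts were 2406 and 2367 for the libraries labelled knockdown, 3035 and 3259 for control, and 1751 and 1732 for the difference; among lists, 28 genes of G2 and mitosis were higher and 1 lower, and 16 DNA replication genes were higher and 4 lower. Deviations of same-numbered libraries correlated by 0.35 to 0.45 in all 6 pairs of groups, but with 2 numbers, of which replicate 1 is the deeper, a pairing is not established.

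Leaving out 1 library at a time gave 541 to 978 higher and 419 to 829 lower genes in the libraries labelled knockdown, 1229 to 1995 and 1221 to 2022 in control, and 438 to 526 and 289 to 355 for the difference. Without 1 of the 4 libraries labelled knockdown, 47.5% to 60.5% of the calls were kept, and no gene called in those libraries turned sign in any setting. Sign turned for genes that had not passed: leaving out 1 library, the log2 change in the libraries labelled knockdown ran from -1.19 to 2.27 for Gm23935, -0.0168 to 0.352 for H19, -0.707 to 1.71 for Yam1 and -0.339 to 0.0666 for Dst. The difference ran from -0.821 to 6.17 for Bglap, -0.272 to 0.0954 for Sp7 and -0.204 to 0.202 for Dst. For Alpl, whose difference had passed, it was at -0.862 under limma on log2(RPKM + 1). The difference of Dst was also at -0.00298 and -0.00288 with DESeq2 size factors and DESeq2, -0.00643 with no filter, -0.0102 and -0.00558 with 14 and 13 libraries, -5.16e-06 with the block, and -0.0471 and -0.0506 under limma with pseudocounts of 1 and 0.1. Depth limits genes with few counts at day 0, such as Alpl and Bglap.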
